A study of Homo sapiens with 16 samples.

Results

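The 9 genes described here encode the receptor chains, kinases, transcription factors and a phosphatase through which interleukin 6 acts on a cell: IL6R, IL6ST, JAK1, JAK2, TYK2, STAT3, STAT5A, STAT5B and PTPN11. They were taken by symbol from expression tables of 28277 genes, and all 9 had a row and passed the filter on low values in both tables. The tables come from INA6 and JJN3, established human multiple myeloma lines labelled as plasma cells. In each line 3 libraries carried a KANSL2 knockdown (KANSL2KD) and 3 carried a non-targeting guide RNA (nt), which makes 12 RNA libraries. The knockdown was made by CRISPR interference, in which a dCas9 repressor fusion (dCas9-CRAB in the submitters' spelling) is guided to KANSL2, a subunit of the NSL complex that holds the histone acetyltransferase KAT8. All libraries, knockdown and control, carried a guide and were labelled as untreated. INA6 is known as a line that needs interleukin 6 to grow, and JJN3 grows without it. Whether interleukin 6 was in the medium, how many guides were used and whether a line was 1 clone or a pool are not given in the sources used here. The labels do not say that replicates came from separate cultures, so each p-value is relative to library-to-library spread that could be purely technical. Another 4 JJN3 libraries for chromatin accessibility were not analysed here.

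Interleukin 6 binds IL6R, the ligand-specific chain, and the complex recruits IL6ST, the shared signalling chain known as gp130. JAK1, JAK2 and TYK2 are tyrosine kinases bound to the receptor tails, and they phosphorylate the transcription factors STAT3, STAT5A and STAT5B, which then enter the nucleus. PTPN11, the phosphatase SHP2, links the receptor to the RAS to ERK cascade. In myeloma, interleukin 6 from the bone marrow is a known growth and survival signal for the plasma cells.

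Expression is given as the authors' regularised log values (rlog, in log2 units), where a difference of 1 is a change by a factor of 2. Each line was normalised separately, so levels were compared within a line only. Read depth cannot be known from such values. Every difference is KANSL2KD minus nt, a gene was called at a limma adjusted p below 0.05 over all genes tested in its line, and the p-values are two-sided. KANSL2 itself had 7.71, 7.60 and 7.76 in INA6 KANSL2KD against 8.06, 8.02 and 8.16 in nt (76.4% of the nt level), and 6.00, 5.98 and 6.06 in JJN3 KANSL2KD against 7.25, 7.24 and 7.19 in nt (43.1%). The call rule is passed by much of the transcriptome: 48.6% of 12511 genes in INA6 and 51.0% of 12282 genes in JJN3. In INA6 3084 genes were higher and 3000 lower in KANSL2KD, and 3904 and 2400 with each library centred on its median. In JJN3 3135 were higher and 3129 lower, and 3768 and 2571 with that centring. The median distance of a library from the mean of its group lay between 0.028 and 0.046 over the 12 libraries, and none was identical to another. All 10 plasma cell markers listed reached a mean of 3 in both lines. Of them, 2 were higher and 7 lower in INA6 KANSL2KD, while 6 were higher and 1 lower in JJN3 KANSL2KD. Their summed rlog value was 119.04 to 120.31 in INA6 KANSL2KD against 122.70 to 123.08 in nt, and 115.00 to 115.43 in JJN3 KANSL2KD against 113.12 to 113.75 in nt. The summed B cell, T and NK cell and myeloid markers of INA6 overlapped between groups. None of the 6 stromal markers reached a mean of 3 in either line. Their INA6 sums lay apart, at −1.279 to −1.244 in KANSL2KD and −1.236 to −1.170 in nt. In JJN3 the B cell markers had 2 of 7 higher and 2 lower, with a summed rlog value of 25.15 to 25.55 in KANSL2KD and 24.76 to 24.99 in nt. T and NK cell markers had 2 of 7 lower in JJN3 (summed rlog value 16.58 to 16.71 in KANSL2KD, 16.73 to 17.12 in nt). These were CD247 (mean 10.38, difference −0.15) and CD3E (mean 5.30, difference −0.18), while CD3D and CD3G were listed at 0. The part of these markers in the results was not tested.

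IL6ST was the only member that rose in both lines, while IL6R, its ligand-binding partner, passed the test in neither. In INA6 the rlog values of IL6ST were 10.66, 10.59 and 10.51 in KANSL2KD, against 10.25, 10.20 and 10.25 in nt. All 3 knockdown libraries lay above all 3 controls. The difference was 0.35 (SE 0.048, limma adjusted p = 4.22e-06), which puts KANSL2KD at 128% of the nt level, with group means of 10.59 ± 0.079 in KANSL2KD and 10.23 ± 0.030 in nt (SD, n = 3 each). In JJN3 its values were 10.95, 10.96 and 10.82 in KANSL2KD, against 10.70, 10.62 and 10.46 in nt, again without overlap. There the difference was 0.32 (SE 0.049, limma adjusted p = 3.63e-06), or 125% of the nt level. The rises in INA6 and JJN3 differed by 0.04 (95% interval −0.10 to 0.17, adjusted p = 0.739). In bulk RNA, expression by fewer or more cells and a change in RNA per cell cannot be told apart, here or below. IL6ST lies on chromosome 5 from 55935095 to 55994963 on the minus strand of GRCh38.p14, and reads shared with its pseudogene IL6STP1, which has no row, leave its level uncertain.

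IL6R, on chromosome 1 from 154405343 to 154469450 on the plus strand, had rlog values of 10.01, 10.06 and 10.05 in INA6 KANSL2KD and 10.04, 9.97 and 10.18 in INA6 nt. In JJN3 it had 7.70, 7.51 and 7.53 in KANSL2KD and 7.56, 7.68 and 7.60 in nt. The groups overlapped in both lines. Its difference was −0.02 in INA6 (95% interval −0.13 to 0.09, limma adjusted p = 0.745) and −0.03 in JJN3 (95% interval −0.15 to 0.09, adjusted p = 0.699). The antisense gene IL6R-AS1 overlaps IL6R, and no source used here says if counting was stranded, so reads of both genes cannot be told apart.

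JAK1 was the member whose change ran in opposite directions, lower in INA6 KANSL2KD and higher in JJN3 KANSL2KD. JAK1 is the kinase regarded as the main partner of gp130. Its rlog values in INA6 were 10.25, 10.23 and 10.13 in KANSL2KD, against 10.39, 10.46 and 10.56 in nt. The knockdown libraries all lay below the controls, with a difference of −0.27 (SE 0.051, limma adjusted p = 0.000205), or 83.2% of the nt level. In JJN3 it had 10.37, 10.31 and 10.20 in KANSL2KD, against 10.10, 10.08 and 10.12 in nt. Here the knockdown libraries all lay above the controls, with a difference of 0.19 (SE 0.045, limma adjusted p = 0.000664), or 114% of the nt level. The INA6 difference minus the JJN3 difference was −0.46 (SE 0.068, adjusted p = 4.52e-07). Of 11137 genes tested in both lines, 3.91% were called in opposite directions and 30.0% differed between lines at an adjusted p below 0.05. JAK1 lies on chromosome 1 from 64833229 to 65067746 on the minus strand, and 4 genes with rows of their own, RAVER2 among them, overlap its span.

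TYK2 rose in JJN3 and did not pass the test in INA6, and JAK2 passed in neither line. TYK2, on chromosome 19 from 10350533 to 10380572, is a JAK family kinase also used by interferon and interleukin 12 receptors. In JJN3 it had rlog values of 10.34, 10.41 and 10.37 in KANSL2KD, against 10.21, 10.24 and 10.08 in nt, with no overlap, a difference of 0.20 (SE 0.045, limma adjusted p = 0.000542) and 115% of the nt level. In INA6 it had 10.24, 10.30 and 10.42 in KANSL2KD and 10.26, 10.28 and 10.32 in nt, which overlapped (0.03, 95% interval −0.07 to 0.13, adjusted p = 0.628). The difference between the lines itself missed the threshold (INA6 minus JJN3 −0.17, 95% interval −0.30 to −0.03, adjusted p = 0.0543). It passed without INA6_KANSL2KD replicate 3 (−0.22, adjusted p = 0.0086), without JJN3_KANSL2KD replicate 1 (−0.18, 0.0315) and without JJN3_nt replicate 2 (−0.20, 0.0346), in a range of 0.0086 to 0.203 over the alternatives.

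JAK2, on chromosome 9 from 4984390 to 5129948, is the kinase of the erythropoietin and growth hormone receptors as well as a partner of gp130. Its rlog values in INA6 were 6.74, 6.86 and 6.71 in KANSL2KD and 6.79, 6.90 and 6.77 in nt. In JJN3 they were 5.90, 5.87 and 5.85 in KANSL2KD and 5.98, 6.08 and 5.87 in nt. Knockdown and control libraries overlapped in both lines. The difference was −0.05 in INA6 (95% interval −0.18 to 0.09, limma adjusted p = 0.564) and −0.10 in JJN3 (95% interval −0.22 to 0.01, adjusted p = 0.133). Without JJN3_nt replicate 3 the JJN3 difference was −0.16 and passed (adjusted p = 0.0348), in a range of 0.0348 to 0.646 over the alternatives.

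**Figure D1:**
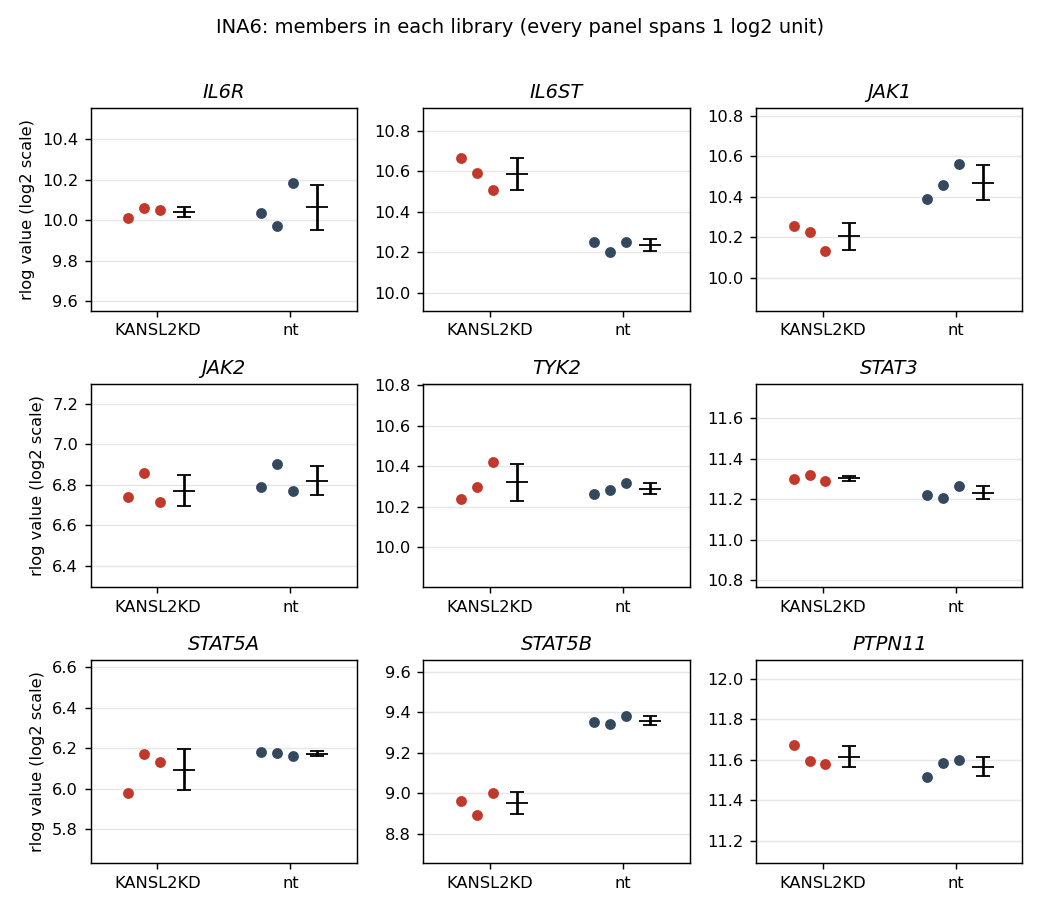
rlog values (log2 scale, vertical axis) of the 9 members in each INA6 library, KANSL2KD left and nt right in every panel, with the mean ± SD of the 3 libraries beside the points. IL6ST is higher in all 3 KANSL2KD libraries, JAK1 and STAT5B are lower in all 3, and the groups of STAT3 lie apart by only 0.07.

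The STAT genes divided. STAT5B fell in both lines, STAT5A fell in JJN3, and STAT3, the factor most tied to interleukin 6, passed the test in neither line. STAT5B had rlog values of 8.96, 8.89 and 9.00 in INA6 KANSL2KD, against 9.35, 9.34 and 9.38 in INA6 nt. Every knockdown library lay below every control, by 0.41 on average (difference −0.41, SE 0.051, limma adjusted p = 1.42e-06), at 75.5% of the nt level. In JJN3 STAT5B had 10.04, 10.07 and 9.99 in KANSL2KD, against 10.40, 10.44 and 10.34 in nt. The groups again lay apart, with a difference of −0.36 (SE 0.043, limma adjusted p = 3.95e-08) and 77.8% of the nt level. Between the lines the falls differed by −0.04 (95% interval −0.18 to 0.09, adjusted p = 0.656).

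STAT5A, a close paralog of STAT5B that answers many of the same cytokines, showed the largest change of any member, and only in JJN3 was it called. Its JJN3 rlog values were 5.50, 5.47 and 5.56 in KANSL2KD, against 6.11, 6.01 and 5.99 in nt. These do not overlap, and the difference of −0.53 (SE 0.054, limma adjusted p = 2.74e-09) leaves 69.2% of the nt level. It was the fall of rank 118 among 12282 genes in JJN3. In INA6 STAT5A had 5.98, 6.17 and 6.13 in KANSL2KD and 6.18, 6.18 and 6.16 in nt. There KANSL2KD replicate 1 was the lowest library and the other knockdown libraries lay near the controls, with a difference of −0.08 (95% interval −0.21 to 0.05, limma adjusted p = 0.319). The test of the difference between lines gave 0.45 for INA6 minus JJN3 (SE 0.084, adjusted p = 3.33e-05). STAT5A and STAT5B are near-identical in much of their sequence and their gene spans overlap on chromosome 17, so how the authors' counting divided shared reads between them is uncertain.

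STAT3 had rlog values of 11.30, 11.32 and 11.29 in INA6 KANSL2KD, against 11.22, 11.21 and 11.27 in INA6 nt. In JJN3 it had 10.55, 10.56 and 10.56 in KANSL2KD, against 10.52, 10.54 and 10.53 in nt. In both lines every knockdown library lay above every control, yet by little: 0.07 in INA6 (95% interval −0.02 to 0.16, limma adjusted p = 0.164) and 0.03 in JJN3 (95% interval −0.05 to 0.11, adjusted p = 0.54). Groups that do not overlap are common in these tables, at 55.2% of genes in INA6 and 56.1% in JJN3. They were found for 4 of the 9 members in INA6 and 7 in JJN3. The sign of the STAT3 difference turned with quantile normalisation, to −0.01 in INA6 and −0.06 in JJN3. With each INA6 library centred on its median it was 0.11 and passed (adjusted p = 0.0358), in a range of 0.0358 to 0.783 over the alternatives.

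The 3 STAT genes lie side by side on chromosome 17 of GRCh38.p14, STAT5B from 42199177 to 42288370 on the minus strand, STAT5A from 42287439 to 42311943 on the plus strand and STAT3 from 42313324 to 42388442 on the minus strand. The gene records of STAT5B and STAT5A overlap head to head, and 1380 bases separate the ends of STAT5A and STAT3. The 250 bases before the transcript start that RefSeq's table uses are shown for IL6ST, STAT5B, STAT5A and JAK1 because IL6ST and STAT5B each changed in the same direction in both lines, while STAT5A and JAK1 differed between the lines. They are RefSeq sequences read 5′ to 3′ on the strand of the gene, with each CG dinucleotide in capitals. The window of IL6ST is chr5:55994964-55995213 (minus strand), that of STAT5B chr17:42276392-42276641 (minus), that of STAT5A chr17:42287189-42287438 (plus) and that of JAK1 chr1:65067747-65067996 (minus). The windows of STAT5B and STAT5A both lie inside the gene record of STAT5B.
IL6ST: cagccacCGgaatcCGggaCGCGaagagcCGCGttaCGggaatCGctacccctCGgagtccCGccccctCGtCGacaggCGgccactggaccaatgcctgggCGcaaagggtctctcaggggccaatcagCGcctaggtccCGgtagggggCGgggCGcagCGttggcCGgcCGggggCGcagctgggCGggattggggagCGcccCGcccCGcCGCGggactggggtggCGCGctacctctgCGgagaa
STAT5B: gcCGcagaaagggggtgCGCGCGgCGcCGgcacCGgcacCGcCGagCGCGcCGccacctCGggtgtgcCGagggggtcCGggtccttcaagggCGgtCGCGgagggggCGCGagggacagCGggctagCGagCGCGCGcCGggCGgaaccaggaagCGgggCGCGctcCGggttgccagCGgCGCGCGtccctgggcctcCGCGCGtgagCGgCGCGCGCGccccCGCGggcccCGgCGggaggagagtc
STAT5A: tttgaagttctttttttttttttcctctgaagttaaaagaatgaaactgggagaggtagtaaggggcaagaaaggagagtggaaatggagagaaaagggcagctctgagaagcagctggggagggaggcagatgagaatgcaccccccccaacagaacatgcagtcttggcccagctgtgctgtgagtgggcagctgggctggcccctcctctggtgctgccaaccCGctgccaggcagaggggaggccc
JAK1: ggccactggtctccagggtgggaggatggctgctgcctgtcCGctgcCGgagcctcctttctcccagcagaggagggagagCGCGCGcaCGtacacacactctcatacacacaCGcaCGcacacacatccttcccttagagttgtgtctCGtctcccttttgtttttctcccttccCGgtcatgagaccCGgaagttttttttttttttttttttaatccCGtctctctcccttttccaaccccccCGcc
The window of STAT5B held 47 CG dinucleotides and was 82% G or C, above 99.7% of all 27305 promoter windows of this length in its CG count. IL6ST held 31 and was 73.6% G or C. STAT5A held 1 CG, below most windows, with 54.8% G or C, and JAK1 held 13 with 55.6%. The median window held 11 CG dinucleotides and 58% G or C. Of the 9 members 8 had a promoter in the table, and in their windows no match was found on either strand to TTCNNNGAA, the element STAT dimers bind, to the E-box CACGTG or to TATAAA. These letters occur in 6.78%, 6.49% and 11.1% of all windows.

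**Figure D2:**
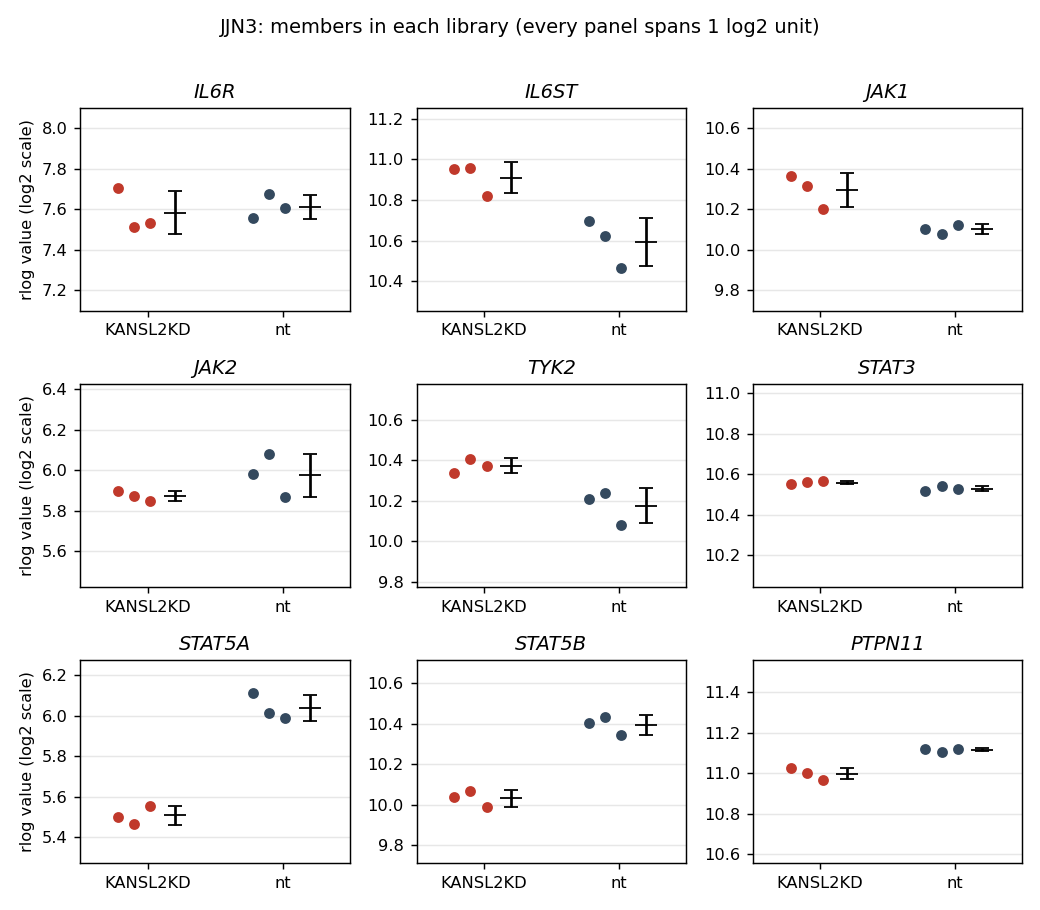
rlog values (log2 scale, vertical axis) of the 9 members in each JJN3 library, KANSL2KD left and nt right in every panel, with the mean ± SD of the 3 libraries beside the points. IL6ST, JAK1 and TYK2 are higher and STAT5A, STAT5B and PTPN11 lower in all 3 KANSL2KD libraries. STAT3, which was not called, is also higher in all 3, by only 0.03.

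PTPN11, on chromosome 12 from 112418947 to 112509918, fell slightly in JJN3. Its rlog values there were 11.03, 11.00 and 10.97 in KANSL2KD, against 11.12, 11.11 and 11.12 in nt, without overlap. The difference of −0.12 (SE 0.039, limma adjusted p = 0.0132) leaves 92.2% of the nt level, and it was lost with median centring (−0.09, adjusted p = 0.0544, in a range of 5.18e-05 to 0.0544 over the alternatives). In INA6 it had 11.67, 11.60 and 11.58 in KANSL2KD and 11.51, 11.58 and 11.60 in nt, which overlapped (0.05, 95% interval −0.04 to 0.14, adjusted p = 0.358). The difference between lines was 0.17 for INA6 minus JJN3 (SE 0.058, adjusted p = 0.0247). That call was lost without INA6_KANSL2KD replicate 1 (0.14, adjusted p = 0.0626), without INA6_nt replicate 1 (0.14, 0.0926), without the mean-variance trend (0.0549) and with the replicate number as a block (0.0556), in a range of 0.0141 to 0.0926. Shared reads leave the level uncertain also for PTPN11, after which RefSeq names 5 pseudogenes without rows, and for IL6R, with 1.

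Counted together, 1 member was higher and 2 were lower in INA6 KANSL2KD, so that 33.3% of the 9 were called, below the 48.6% of all genes. In JJN3 3 were higher and 3 lower, or 66.7% against 51.0%. The median difference of the 9 was −0.02 in INA6 and −0.03 in JJN3, beside 0.00094 and 0.0010 over all genes tested. Under median centring the INA6 median was 0.01. Only STAT5A in JJN3 moved by more than 0.5. In JJN3 every member moved less than KANSL2 (−1.21), while in INA6 STAT5B (−0.41) and IL6ST (0.35) moved about as much as KANSL2 (−0.39). In both lines 1 member rose, where 14.2% of genes did, and 1 fell, where 12.3% did. JAK1, STAT5A and PTPN11 differed between the lines, 3 of 9 beside 30.0% of all genes.

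**Figure D3:**
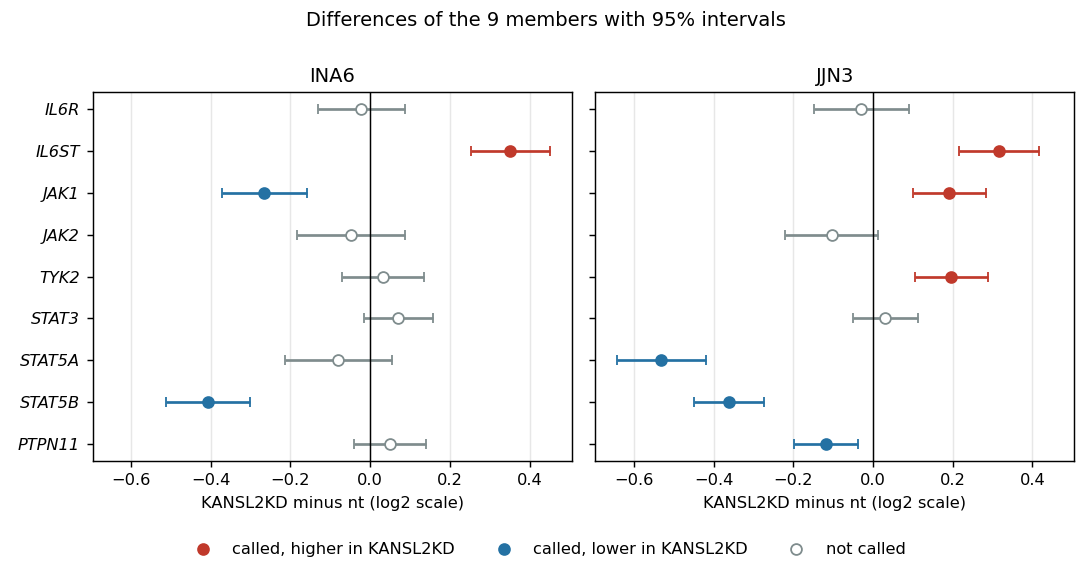
Difference between KANSL2KD and nt (log2 scale, horizontal axis) with its 95% interval for each member, INA6 left and JJN3 right, filled where the gene was called. The intervals of JAK1 lie on opposite sides of 0 in the 2 lines, those of IL6ST both above 0 and those of STAT5B both below 0.

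For the 3 members called in both lines, the genes with the most similar pattern over the 12 libraries were taken from 9408 genes with a mean of at least 5 in both lines. The measure is the root mean squared difference between deviations from the mean of each line. Nearest to IL6ST was FAM126B at 0.042, then FEM1C at 0.048 and USP1 at 0.051, where the median gene lay at 0.190. JAK1 was followed most closely by HOOK3 (0.041), RAB29 (0.045) and C1GALT1C1 (0.046). HOOK3 had a difference of −0.17 in INA6 and 0.15 in JJN3. STAT5B had HEMK1 (0.034), KIAA0319L (0.034) and the receptor gene IL10RB (0.040) nearest to it, and IL10RB was at −0.39 in INA6 and −0.41 in JJN3.

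Around the 9 members, 82 further genes of the pathway were listed by role. Of 65 tested in INA6, 13 were higher and 25 lower in KANSL2KD, and of 66 tested in JJN3, 24 were higher and 18 lower. That is 58.5% called in INA6, beside 48.6% of all genes, and 63.6% in JJN3, beside 51.0%. With quantile normalisation 14 were higher and 27 lower in INA6, and 16 were higher and 20 lower in JJN3. Of the ligands that signal through gp130, 2 of 10 were tested in INA6 and 1 in JJN3. IL6 had a mean of −1.97 in INA6 and was listed at 0 in all JJN3 libraries. A value at or near 0 does not show absence here, since HRAS, a widely expressed gene, is also listed at 0 in all libraries of both lines. OSM, oncostatin M, was at −0.17 in INA6 (limma adjusted p = 0.0117), a call lost without INA6_KANSL2KD replicate 2 (−0.12, adjusted p = 0.0864, in a range of 0.00586 to 0.0864).

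Of the 6 receptor chains listed that pair with gp130, 3 were tested in INA6, where 1 rose and 1 fell. That is 66.7% called, beside 48.6% of all genes. In JJN3 2 were tested and 1 rose, where 51.0% of all genes were called. IL11RA, the interleukin 11 receptor, had rlog values of 5.72, 5.73 and 5.78 in INA6 KANSL2KD, against 6.21, 6.13 and 6.08 in nt. All knockdown libraries were lower, with a difference of −0.40 (SE 0.061, limma adjusted p = 1.94e-05). LIFR, the leukaemia inhibitory factor receptor, had 7.53, 7.61 and 7.32 in INA6 KANSL2KD, against 7.11, 7.05 and 7.12 in nt. It was higher throughout, by 0.39 (SE 0.070, limma adjusted p = 0.000105). In JJN3 IL11RA was at −0.08 (adjusted p = 0.133), and LIFR fell below the filter. IL27RA was the receptor chain that rose in JJN3 (0.15, adjusted p = 0.00732), a call lost with quantile normalisation (0.08, 0.147) and without JJN3_nt replicate 2 (0.12, 0.0598; range 0.00179 to 0.147). Of the proteases that shed IL6R, ADAM10 rose in JJN3 (0.21, adjusted p = 9.23e-05) and was at 0.003 in INA6, while ADAM17 was called in neither line (0.09 in INA6 and −0.08 in JJN3).

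Of the 5 JAK and STAT genes outside the members, 1 rose and 1 fell in INA6 and 2 fell in JJN3. That is 40.0% called in each line, below the 48.6% of all genes in INA6 and 51.0% in JJN3. STAT6, the interleukin 4 factor, fell in INA6 (−0.15, limma adjusted p = 0.0131), which was lost with median centring (0.0546) and without INA6_nt replicate 1 (−0.13, 0.0763; range 0.00174 to 0.0763). JAK3 fell in JJN3 (−0.10, adjusted p = 0.0391), a call lost under 8 of 13 alternatives, among them the removal of any library but JJN3_KANSL2KD replicate 3, in a range of 0.000342 to 0.132.

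Of the SOCS genes, which bind receptors or JAKs and are induced by cytokines, 1 of 6 tested rose and 3 fell in INA6, and 3 of 7 rose and 2 fell in JJN3. That is 66.7% called in INA6 and 71.4% in JJN3, beside 48.6% and 51.0% of all genes. CISH, a target of STAT5, fell in both lines (−0.68 in INA6 and −0.27 in JJN3), and SOCS1 was higher in JJN3 KANSL2KD by 0.77. Of the 10 other inhibitors 1 rose and 5 fell in INA6, with a median difference of −0.12. Of 9 tested in JJN3 1 rose and 4 fell, with a median of −0.12, while 3 rose and 3 fell with median centring and 5 fell and none rose with quantile normalisation. The shares called, 60.0% in INA6 and 55.6% in JJN3, stand beside 48.6% and 51.0% of all genes. CBL, a ubiquitin ligase for activated receptors, fell in both lines (−0.23, limma adjusted p = 0.0011 in INA6, and −0.36, adjusted p = 4.93e-08 in JJN3). The SUMO ligase gene PIAS3, named for its inhibition of STAT3, was at −0.19 in INA6 and −0.35 in JJN3. Its INA6 call (adjusted p = 0.0119) was lost with quantile normalisation (0.0618) and without INA6_KANSL2KD replicate 1 (−0.15, 0.0542; range 0.00724 to 0.0618). PTPN6, the phosphatase SHP1, fell in INA6 (−0.32, adjusted p = 0.000186) and was at 0.05 in JJN3 (adjusted p = 0.374). PTPN2, which dephosphorylates JAK1 and STAT proteins, rose in INA6 (0.28, adjusted p = 0.000413).

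Of 17 adaptors and kinases of the ERK and PI3K arm, 5 rose and 4 fell among 16 tested in each line. That is 56.2% called in each line, beside 48.6% of all genes in INA6 and 51.0% in JJN3. The medians of this list were 0.010 in INA6 and 0.0092 in JJN3, and with quantile normalisation these turned to −0.06 and −0.07. With it 4 rose and 6 fell in INA6, and 1 rose and 5 fell in JJN3. GAB2, a docking protein that binds SHP2, had rlog values of 7.89, 7.79 and 7.78 in INA6 KANSL2KD, against 8.13, 8.27 and 8.31 in nt. In JJN3 it had 8.03, 8.28 and 8.13 in KANSL2KD, against 7.73, 7.92 and 7.79 in nt. It was lower in INA6 KANSL2KD (−0.41, limma adjusted p = 1.43e-05) and higher in JJN3 KANSL2KD (0.33, adjusted p = 3.79e-05), as JAK1 was. SOS2, an exchange factor for RAS, fell in both lines (−0.41 and −0.28), as did MAPK3, which encodes ERK1 (−0.20 and −0.47). AKT1, a kinase of the PI3K arm, fell in INA6 (−0.30).

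Of 22 STAT3 targets tested in INA6, 4 rose and 11 fell (68.2% called, median −0.10). Of 25 in JJN3, 14 rose and 6 fell (80.0% called, median 0.14). Over all genes tested 24.7% rose and 24.0% fell in INA6, and 25.5% rose and 25.5% fell in JJN3, and the direction of the list was not tested. The lists were drawn up with earlier results of these data known, so their directions are not independent evidence. SOCS3, a feedback inhibitor that binds gp130 and is on this list too, was at −2.26 in INA6 (limma adjusted p = 7.11e-18) and at 0.50 in JJN3 (adjusted p = 8.08e-07). The JJN3 call of SOCS3 was lost with a robust prior (adjusted p = 0.0506, in a range of 3.06e-12 to 0.0506). FOS, a subunit of the AP-1 factor, was at −1.49 in INA6 (adjusted p = 1.33e-13) and at 0.63 in JJN3 (adjusted p = 9.31e-08). MYC, a growth regulator, fell in both lines (−0.52 in INA6 and −0.40 in JJN3), and so did VEGFA, the angiogenic factor (−0.40 and −0.44). JUNB fell by 0.98 in INA6. Its call in JJN3 (−0.17, adjusted p = 0.0076) was lost without JJN3_nt replicate 1 (−0.10, adjusted p = 0.119). Of 6 STAT5 targets tested in INA6 4 fell, with a median of −0.18, and of 6 in JJN3 3 rose and 2 fell, with a median of 0.10. That is 66.7% called in INA6 and 83.3% in JJN3, beside 48.6% and 51.0% of all genes. Every gene of the STAT5 list is also on another list here, and those that rose in JJN3 are STAT3 targets counted above. The STAT5 counts are therefore not a separate result. BCL6, a transcriptional repressor that maintains the germinal centre programme, is a target of both factors. It rose in JJN3 by 0.92 (limma adjusted p = 5.05e-13) and was at 0.0043 in INA6 (adjusted p = 0.963). PIM1, a survival kinase, had rlog values of 10.44, 10.48 and 10.56 in INA6 KANSL2KD against 10.91, 11.06 and 10.90 in nt. In JJN3 PIM1 had 11.89, 11.89 and 11.93 in KANSL2KD against 11.18, 11.09 and 11.09 in nt. PIM1 was thus lower in every INA6 knockdown library and higher in every JJN3 one. Of the genes called on all these lists, 30 of 38 in INA6 and 26 of 42 in JJN3 were called under every alternative run.

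**Figure D4:**
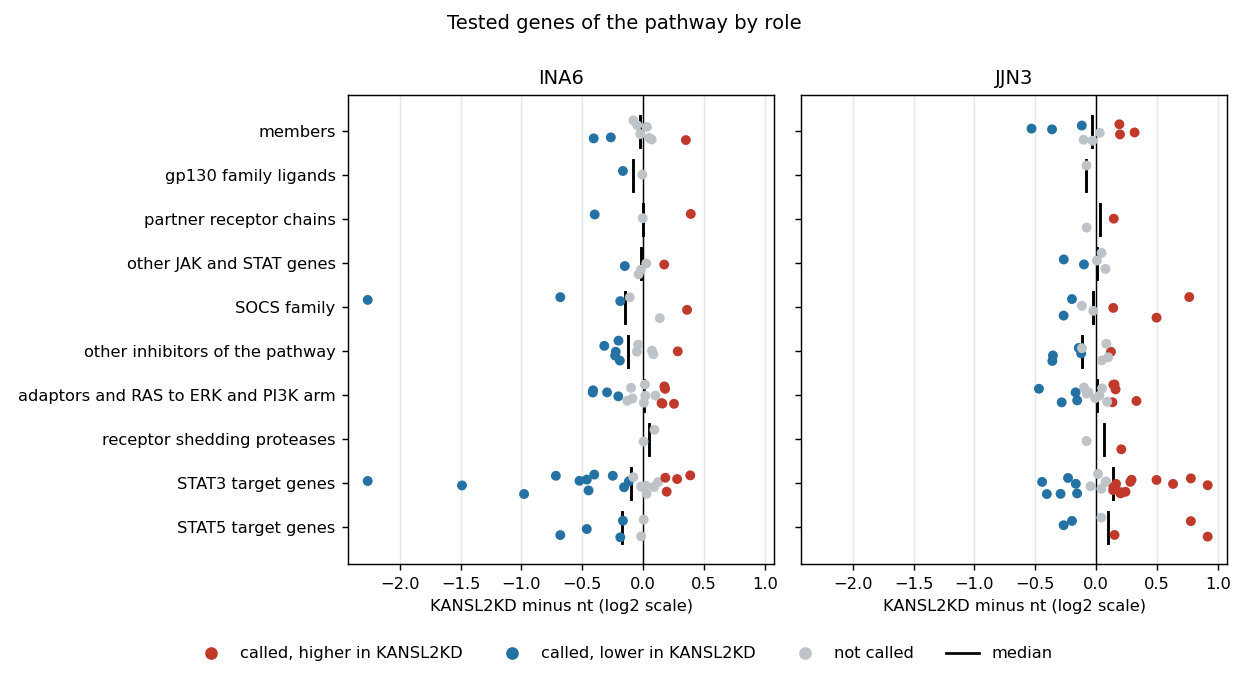
Difference between KANSL2KD and nt (log2 scale, horizontal axis) of every tested member and listed pathway gene by role, INA6 left and JJN3 right, each point a gene and each black bar the median of its list. The members lie between −0.53 and 0.35, while SOCS3 and FOS reach below −1 in INA6.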

How the data were processed

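Titles gave the groups. The tools named, per the submitters' processing notes, are Bowtie2, HTSeq, DESeq2 and Trim Galore, with build hg38; settings and annotation are not given in the sources used here. For INA6 and for JJN3 the authors deposited a separate table of rlog values, which are log2 values. In rlog, counts are depth-scaled and low genes are shrunk towards their mean, so their changes are understated. With no counts, depth and counting error are unknown.

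Within a line, genes averaging 3 or more in its 6 libraries were tested with limma 3.58.1 in R 4.3.3 (lmFit, eBayes with a mean-variance trend, no block), tested on simulated data, with Benjamini-Hochberg adjustment over 12511 genes in INA6 and 12282 in JJN3. Differences were compared between lines by their difference over the root of the summed squared standard errors, over 11137 genes. An exact permutation test of 3 against 3 libraries cannot go below 0.1, so none was used.

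The members and lists were chosen with earlier results of these data known. Named were the members, KANSL2, genes of lists of up to 10 genes, up to 4 called genes per line of longer lists (by smallest adjusted p), the 3 nearest genes by pattern, and listed genes that differed between lines; RAVER2 and HRAS were named after their values were seen. Some genes that the rule names are not reported here, and counts over lists include them. Alternatives were other filters, priors and scalings, the replicate block and leaving out each library. Coordinates and sequences are from RefSeq GRCh38.p14, where all 9 symbols matched.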

Additional observations from a re-analysis of the deposited data

Results flagged for a closer look

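Results are given here because the knockdown difference in INA6 and that in JJN3 differed from each other by the test of that difference, with an adjusted p below 0.05 over 11137 genes. Values are the INA6 difference minus the JJN3 difference on the log2 scale. Among the members these were JAK1 (−0.46), STAT5A (0.45) and PTPN11 (0.17), and the target gene KANSL2 (0.82) was among them too. KANSL2 was at 76.4% of the nt level in INA6 KANSL2KD and at 43.1% in JJN3 KANSL2KD. In every difference listed here, cell line and strength of knockdown therefore cannot be told apart. JAK1 was lower in INA6 KANSL2KD and higher in JJN3 KANSL2KD, and both STAT5A and PTPN11 were called lower in JJN3 KANSL2KD and not called in INA6. Some alternatives ended the call of the difference between lines for PTPN11.

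Other pathway genes met the same test. INA6 minus JJN3 was below 0 for ADAM10 (−0.20), AKT1 (−0.23), BCL3 (−0.53), BCL6 (−0.91), CISH (−0.41), FOS (−2.12), FURIN (−0.28), GAB2 (−0.75), IL11RA (−0.32), JUNB (−0.81), MCL1 (−0.18), PIM1 (−1.24), PRDM1 (−0.998), PTPN1 (−0.17), PTPN6 (−0.37), SOCS1 (−0.63) and SOCS3 (−2.76). INA6 minus JJN3 was above 0 for LGALS3BP (0.38), MAPK3 (0.27), PIAS2 (0.20), PIAS4 (0.20), PIK3CA (0.27) and SOCS4 (0.38). The sign does not give the direction within a line. BCL6 (0.0043) and SOCS1 (0.14) were not called in INA6 and rose in JJN3, and MAPK3 fell in both lines. The tests of MCL1, PIAS2, PIAS4 and PTPN1 missed the threshold under at least 1 alternative, and those of the other listed pathway genes named here passed under every alternative run.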

How the results depend on the processing

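Over 13 alternatives per line and 19 for the difference between lines, the total counts of genes, members and listed genes called stayed within 1.5 times those reported. The split of the listed genes into higher and lower did not always hold. In JJN3 more were lower than higher with quantile normalisation. IL6ST, JAK1 and STAT5B in both lines, and TYK2 and STAT5A in JJN3, kept their direction and their call under every alternative run.

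Signs turned for small differences that were not called. With quantile normalisation these were JAK2 (0.0033), TYK2 (−0.024), STAT3 (−0.015) and PTPN11 (−0.052) in INA6, and IL6R (0.017) and STAT3 (−0.063) in JJN3. With it INA6 minus JJN3 turned to −0.094 for IL6R and 0.013 for STAT5B. IL6R in INA6 was 0.014 with median centring. Leaving out each library, IL6R ran from −0.070 to 0.038 in INA6 and from −0.090 to 0.0062 in JJN3, and TYK2 in INA6 from −0.020 to 0.071. INA6 minus JJN3 then ran from −0.040 to 0.068 for IL6R and from −0.016 to 0.10 for IL6ST. The cause was not tested.

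Same-numbered libraries of KANSL2KD and nt did not deviate together (r of −0.30 to −0.07 in INA6 and −0.01 to 0.0045 in JJN3). Libraries with different numbers had r of −0.07 to 0.24 in INA6 and −0.06 to 0.06 in JJN3. Such values cannot show whether libraries were prepared in pairs, and the labels state no pairing. With the replicate number as a block 3 members in INA6 and 6 in JJN3 were called, as without it, and 5626 and 6205 genes in all. With the block 37 and 41 listed genes were called, and KANSL2 was at −0.39 and −1.21. Without counts, what depth limits is unknown.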
